A study of Mus musculus with 2 samples.

Results

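Potassium channel genes are followed here in mouse brain of a genotype that targets GPHR, the Golgi pH regulator, an anion channel that keeps the Golgi lumen acidic and whose mouse gene is Gpr89. Members were all array entries whose gene symbol starts with Kcn, goes on with letters and ends in a number, which gave 92 of 37325 genes on the array and 170 of its 56605 distinct probes. By the letters of the symbol they fell into 40 voltage-gated genes, 15 inward rectifiers, 14 two-pore genes, 8 calcium-activated genes with their close relatives, and 15 auxiliary subunits. Total RNA of whole brain at postnatal day 10 had been measured on 1-colour Agilent arrays in 2 samples of strain C57BL/6J, the genotype GPHR F/F;Nes and its GPHR F/F littermate control, with 1 array each. Both animals carried GPHR F/F, and the labels give neither the deleted exons, nor what Nes stands for, nor the sex of either animal. With 1 array per genotype no difference has a replicate check, no test was possible, and no p-value is given.

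Potassium channels let potassium ions leave or enter a cell along their gradient and so set its resting potential, the width of its action potentials and the rate at which it fires. Voltage-gated channels open on depolarization, inward rectifiers hold the membrane near its resting potential or clear potassium in glia, two-pore channels carry a steady leak, and calcium-activated channels end bursts of firing. Auxiliary subunits change the trafficking or gating of these pores. Many of these genes are first strongly expressed in the rodent brain as its neurons mature after birth.

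The array measured each gene by 60-base oligonucleotides, and 4 of them are shown because they carry large differences in either direction. All lie on mm9, the build of the array's design, and are written from their 5′ end. The Kcnip2 probe sits at chr19:45868494-45868553 on the minus strand and the Kcnk12 probe at chr17:88145628-88145687 on the minus strand. The Kcnj3 probe sits at chr2:55290214-55290273 on the plus strand and the Kcnj13 probe at chr1:89282991-89283050 on the minus strand. Which exon or untranslated region each one matches was not analysed here.
Kcnip2: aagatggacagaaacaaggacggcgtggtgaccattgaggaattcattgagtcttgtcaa
Kcnk12: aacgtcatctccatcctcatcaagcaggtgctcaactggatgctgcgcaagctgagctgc
Kcnj3: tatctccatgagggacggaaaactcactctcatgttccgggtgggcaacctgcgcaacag
Kcnj13: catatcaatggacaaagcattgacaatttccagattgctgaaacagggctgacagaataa

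Upstream sequence came from a RefSeq promoter table on GRCm38.p6, which held 92 promoters of 67 members. The 250 bases before the start are shown for Kcnj4, the member with the largest negative difference, and for Kcnj13, a member at least 2-fold higher. Capitals mark the TATA box motif (TATAAA), the GC box motif (GGGCGG) and the CCAAT box motif (CCAAT), each also as its reverse complement. The Kcnj4 window, chr15:79505242-79505491 on the minus strand, held 35 CpG sites and 3 matches to GGGCGG, and the Kcnj13 window, chr1:87394730-87394979 on the minus strand, held 3 CpG sites, 1 TATAAA and 2 CCAAT. In this window, of all 32851 promoters listed, 12.4% held TATAAA, 32.7% held GGGCGG and 33.8% held CCAAT, against 3.26%, 44.6% and 29.3% of the 92 member promoters. A match says only that these letters are present.
Kcnj4: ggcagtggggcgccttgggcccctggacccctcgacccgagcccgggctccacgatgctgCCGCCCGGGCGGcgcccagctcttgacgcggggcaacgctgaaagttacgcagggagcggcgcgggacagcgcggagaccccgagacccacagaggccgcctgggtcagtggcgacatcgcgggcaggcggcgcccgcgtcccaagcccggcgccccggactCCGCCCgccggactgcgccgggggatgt
Kcnj13: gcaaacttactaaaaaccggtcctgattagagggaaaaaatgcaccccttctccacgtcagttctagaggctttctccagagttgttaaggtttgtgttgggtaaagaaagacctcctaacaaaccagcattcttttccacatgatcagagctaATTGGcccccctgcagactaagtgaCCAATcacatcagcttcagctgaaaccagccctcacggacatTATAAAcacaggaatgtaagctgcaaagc

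Signals below are the scanner's processed intensities in its own units. The upper quartile of all probes stood at 259.5 units in GPHR F/F against 173.4 in GPHR F/F;Nes, so every difference was taken after dividing each array by its own 75th percentile, and is given on the log2 scale, negative where GPHR F/F;Nes was lower. The ± value is the scanner software's error of that difference. It is a technical error set largely by the software's multiplicative error of 0.1, and it leaves out variation between animals. For a gene with several probes the probe errors were combined as if independent. The ± value then shrinks with the number of probes and leaves out the spread between them. The targeted gene Gpr89 had 1 probe, with 43.3 units in GPHR F/F against 20.04 in GPHR F/F;Nes (-0.53 ± 0.22), and this probe checks the deletion only if it lies inside the deleted part. Xist was detected on the GPHR F/F;Nes array only and the Y-linked genes Ddx3y, Eif2s3y and Uty on the control array only. The arrays thus differ in sex-linked signal, and genotype and sex cannot be told apart for any member, autosomal or not. Kcnd1, a voltage-gated subunit, is the only member placed on chromosome X, and its difference was -0.02 ± 0.13. Its 3 probes ran from -0.54 to 0.65.

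Potassium channel genes lay on the lower side in GPHR F/F;Nes. Of the 92 members, 78 were well above background on both arrays, and 57 of these lay below 0 (73.1%), against a background of 43.1% among 24112 genes measured in the same way. At least 2-fold lower were 10 members (12.8% of 78), against 1.37% of all genes, and at least 2-fold higher were 3 members (3.85%), against 7.93% of all genes. The median difference was -0.33, whereas the median of all genes was 0.07. The 10 lower members were the inward rectifiers Kcnj4, Kcnj3 and Kcnj16, the voltage-gated pores Kcna1, Kcna4 and Kcnh3, the silent voltage-gated subunits Kcnv1 and Kcns1, the two-pore gene Kcnk12 and the auxiliary gene Kcnip2. The 3 higher members were Kcnk6, Kcnj13 and Kcnq1. Of these 13 genes, 10 rested on 1 measured probe. With each array centred on its median instead, which put the median of all genes at -0.20, 18 members were 2-fold lower and 2 higher. That centring shifts every gene alike, and the members' median minus that of all genes stayed at -0.40. The share of all genes past 2-fold is given for the reported scaling only. After scaling to spike-in RNAs, which put the median of all genes at -0.88, 55 were lower and 1 higher, and all but Kcnk6, Kcnj13 and Kcnq1 lay below 0. After normexp background correction with quantile normalization, 2 were lower (Kcnj4 and Kcna1) and 0 higher. In bulk tissue, fewer cells of a type and less RNA per cell cannot be told apart.

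**Figure D1:**
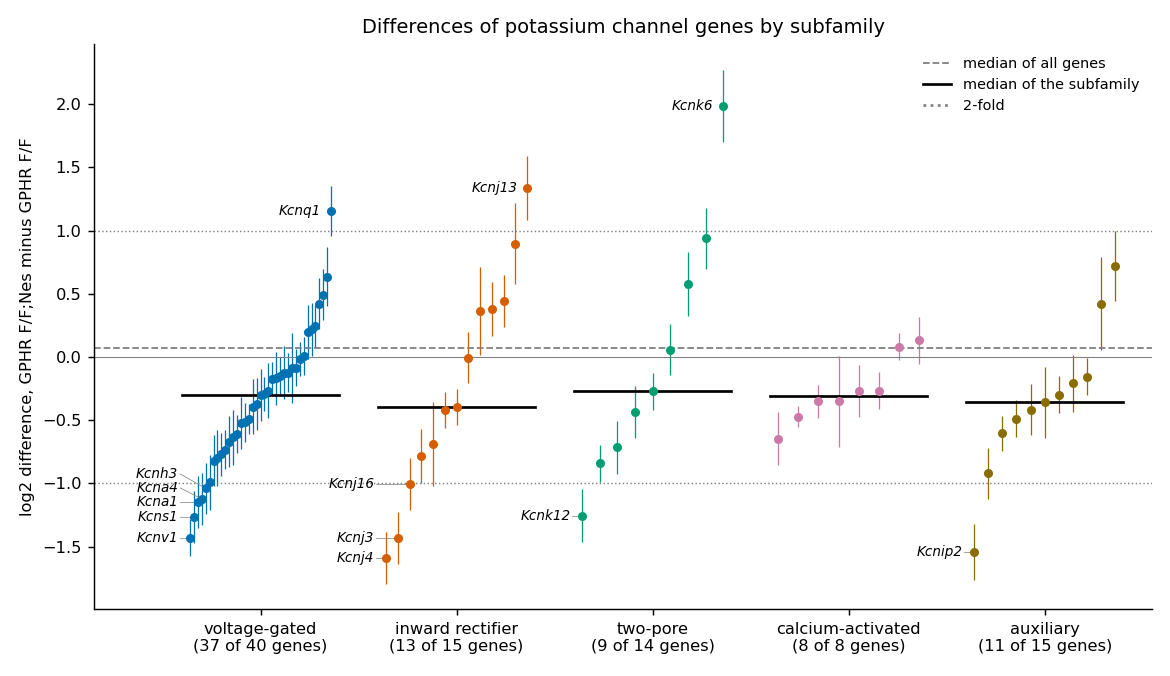
Log2 difference (GPHR F/F;Nes over its control, 1 array each) of the 78 members measured on both arrays, sorted within each subfamily; bars through the points are the scanner's technical error, black lines the subfamily medians, the dashed line the median of all genes (0.07) and dotted lines 2-fold. All 5 subfamily medians lie between -0.40 and -0.27, and the 10 members past 2-fold lower and 3 past 2-fold higher are named.

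The remaining members were accounted for as follows. The genes Kcna10, Kcng4, Kcnj1, Kcnj8, Kcnk5, Kcnk18, Kcne3, Kcne4, Kcnmb1 and Kcnmb3, 10 in all, were not well above background on either array. Kcnk7, a two-pore gene, was detected on the GPHR F/F;Nes array only, with 4.99 units in GPHR F/F against 10.03, and was at least 2.39-fold higher there. Kcng3 and Kcnk9 had signal in the control alone, where Kcng3 was at least 1.41-fold and Kcnk9 at least 1.04-fold higher. The single probe of Kcnk2, the mechanosensitive leak channel TREK-1, was left out because its spot on the GPHR F/F;Nes array was marked as uneven. Its signals were 110 units in the control and 585 units on the uneven spot.

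The differences depended on signal level in all genes, and members were compared with genes of like level. Genes were split into 5 bins of equal size by level. In bin 1, the dimmest, the median difference of all genes was 0.40, and the 15 members there had a median of 0.36 with 6 below 0. In bin 2 the median of all genes was 0.22, against -0.24 for 22 members. In bin 3 it was 0.05, against -0.43 for 20 members, of which 19 lay below 0. In bins 4 and 5, the brightest, the medians of all genes were -0.05 and -0.07, against -0.30 for 13 members (11 below 0) and -0.80 for 8 members (7 below 0). Members at middle and high signal were thus mostly below genes of like signal, and dim members were not. The 3 members at least 2-fold higher lay in bin 1 (2 of 15) and bin 2 (1 of 22). There 17.3% and 10.8% of all genes were at least 2-fold higher. The 10 members at least 2-fold lower lay in bins 2 to 5, where that share of all genes was between 0.995% and 1.82%. Below the 5th percentile of genes of like level lay 23 members (29.5% of 78), and above the 95th percentile 1, Kcnk6. With a loess correction for level the median of the 78 members was -0.42, with 63 below 0. Of all 24112 genes 12030 lay below 0 after that correction, and their median was 0.001.

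**Figure D2:**
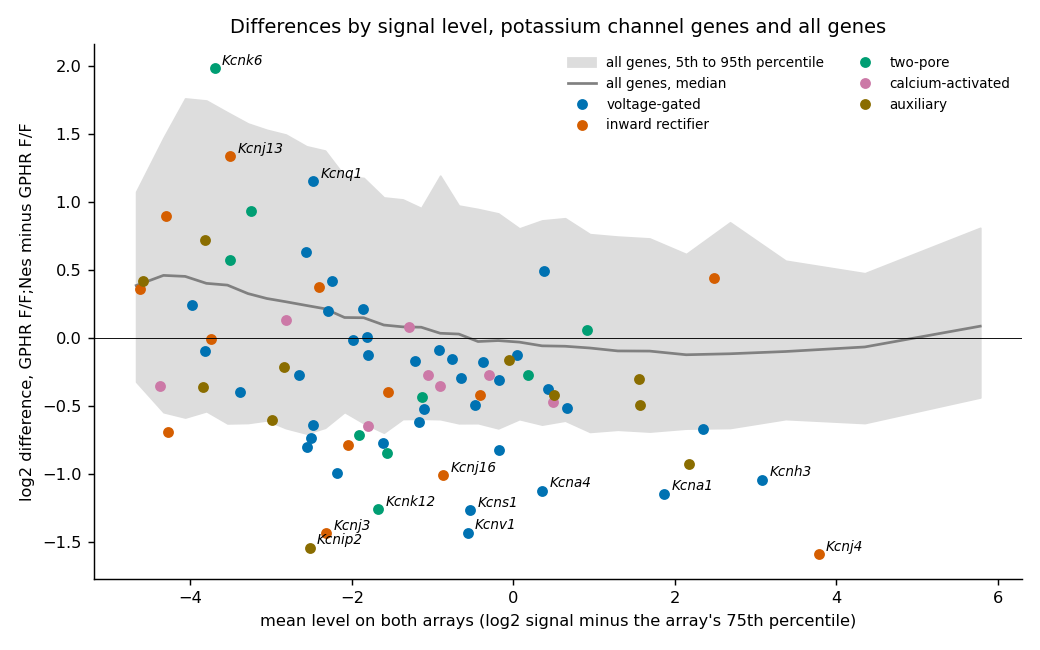
Log2 difference (GPHR F/F;Nes over its control) against mean level on both arrays (log2 signal minus the array's 75th percentile) for the 78 measured members, coloured by subfamily. The grey line and band are the median and the 5th to 95th percentile of 24112 genes in bins of level; the 10 lower members lie under the band and Kcnk6 lies above it.

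Of the voltage-gated genes, which open on depolarization, 37 of 40 were measured, 29 lay below 0 and the median was -0.30. At least 2-fold lower were 5 and higher 1. Shaker-type Kcna genes, whose products keep axons and terminals from firing repeatedly, had the lowest median of the voltage-gated pore families, -0.80 over 7 measured genes, with 6 below 0. Kcna1, the subunit beside the nodes of myelinated axons whose loss causes seizures in mice, gave 1409 units in GPHR F/F against 426 in GPHR F/F;Nes, a difference of -1.15 ± 0.20 (2.21-fold lower). Kcna4, which makes a fast-inactivating axonal current, gave 492 and 151 units (-1.12 ± 0.20). Kcna2, the usual partner of Kcna1, gave 144 and 67.1 units (-0.52 ± 0.21). Kcna5 (-0.99 ± 0.22) and Kcna3 (-0.80 ± 0.22) stood close to the 2-fold line, and Kcna6 was at -0.52, with its 2 probes at -0.81 and -0.22. Kcna7 alone in this family was on the higher side, at 0.49 ± 0.20. All Kcna genes with signal except Kcna7 thus had less of the array's signal in GPHR F/F;Nes.

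The delayed rectifier and A-type pores differed less. Kcnb2, a slow delayed rectifier of neuronal cell bodies, was at -0.17 ± 0.21, within the scanner's error. Among Kcnc genes, which let fast-spiking neurons fire at high rates, Kcnc1 was at -0.49 ± 0.12 with 3 probes between -0.86 and -0.24. Kcnc4 was at -0.77 ± 0.17 and Kcnc2 at 0.42, with a bright probe at -0.17 and a dim probe at 1.01. Kcns3, a modifier found in fast-spiking interneurons, was at 0.20 ± 0.21. Kcnd2, the pore of the dendritic A-type current, gave 1669 units in GPHR F/F against 701 in GPHR F/F;Nes (-0.67 ± 0.20), and its relative Kcnd3 gave 279 and 171 units (-0.13 ± 0.15).

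Within the Kcnh genes of the EAG, ERG and ELK channels, 8 of 8 were measured and 6 lay below 0. Kcnh3, an ELK channel of forebrain neurons, was bright, at 3147 units in GPHR F/F against 1023 in GPHR F/F;Nes (-1.04 ± 0.20); its difference was -0.93 with the loess correction, just short of 2-fold. The ERG channel Kcnh2 was at -0.73 ± 0.16 with both probes close (-0.80 and -0.67), and the EAG channel Kcnh1 at -0.61 ± 0.15. Kcnh6 was at 0.63, but its 2 probes stood at 0.11 and 1.16. Kcnq genes make the M-current, which muscarinic receptors shut off, and the heart's slow repolarizing current. Kcnq3, a neuronal subunit of the M-channel, was at -0.39, with probes at -0.89 and 0.10. Kcnq5 was at -0.17, with probes from -0.98 to 0.69.

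Kcnq1, the cardiac and epithelial member, was the only voltage-gated gene at least 2-fold higher, and this value rested on a single probe. That probe, designed to a sequence outside curated RefSeq, gave 81.4 units in GPHR F/F against 300 in GPHR F/F;Nes, a difference of 2.46. The second measured probe gave 12 and 7.22 units, a difference of -0.15. Of the other 3 probes, 2 were detected on the control array only and 1 on neither. With all 5 probes and no filter on dim ones, the gene's value was -0.087, on the other side of 0.

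Silent subunits do not conduct by themselves and change the Kcnb channels they join. Of the 10 on the array (Kcnf, Kcng, Kcns and Kcnv genes) 8 were measured, 6 lay below 0 and the median was -0.47. Kcnv1, a forebrain subunit, had the largest difference among all voltage-gated genes, -1.43 ± 0.15. Its 2 measured probes agreed in direction, with 107 units in GPHR F/F against 23.3 in GPHR F/F;Nes at one (-1.62) and 772 against 219 at the other (-1.24). The remaining probe was above background in the control only. Kcns1, linked to pain sensitivity, gave 278 and 77.2 units (-1.27 ± 0.21), and Kcnf1 gave 306 and 116 units (-0.82 ± 0.20). Kcns2 was at -0.64 ± 0.22. The remaining measured ones, Kcng1 (-0.30), Kcng2 (0.01), Kcnv2 (-0.09) and Kcns3 (0.20, given above), lay nearer to 0. The silent subunits past 2-fold were thus 2 of the 8 measured.

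**Figure D3:**
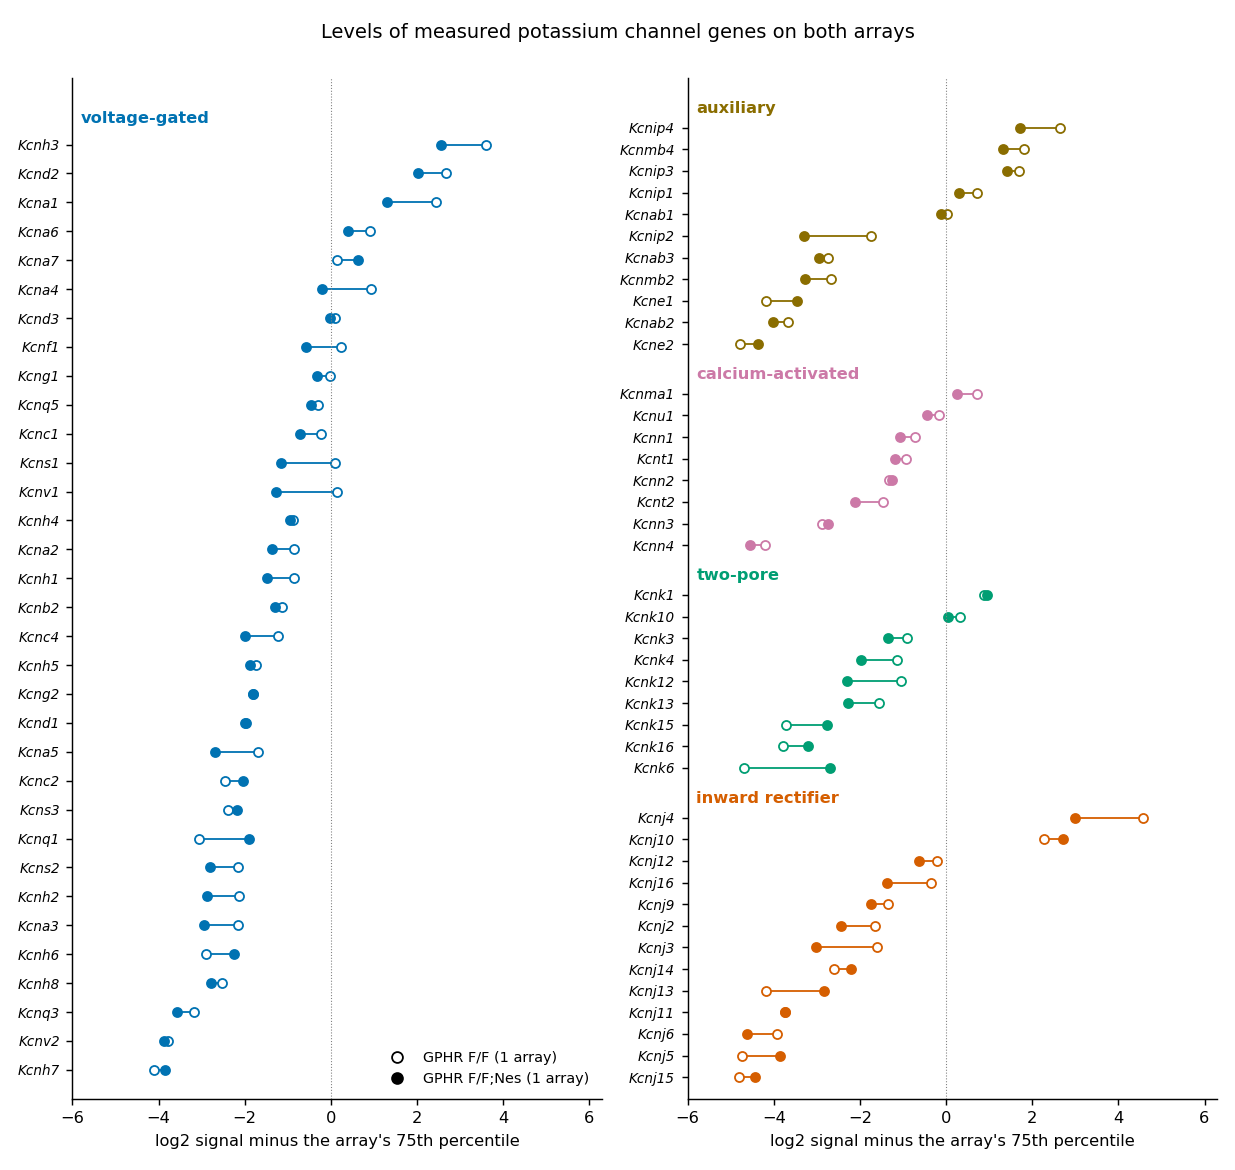
Level of measured members on the GPHR F/F array (open circle) and the GPHR F/F;Nes array (filled circle), as log2 signal minus the array's 75th percentile; voltage-gated genes are on the left and the other subfamilies on the right, sorted by mean level. A filled circle left of its open circle means a lower level in GPHR F/F;Nes, as for Kcna1 and Kcnj4; positions of different genes come from different probes and are not comparable.

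Inward rectifiers differed in both directions. Of 15 genes 13 were measured, 8 lay below 0, 3 were at least 2-fold lower and 1 higher, and the median was -0.40. Kcnj4, which makes the strong rectifier Kir2.3 of forebrain neurons, gave 6204 units in GPHR F/F against 1377 in GPHR F/F;Nes, a difference of -1.59 ± 0.20 (3.01-fold lower). Of all members it was the only one at least 3-fold lower, and its difference was -1.47 after normexp correction. The value rested on 1 probe of 60 bases, whose listed position on mm9 spans only 25 bases. The related strong rectifiers Kcnj2 and Kcnj12 were at -0.79 ± 0.21 and -0.42 ± 0.14. Kcnj14 was at 0.38 ± 0.21.

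GIRK channels open when G-protein-coupled receptors for GABA, opioids or acetylcholine are activated. Kcnj3, their most widely shared subunit, gave 205 and 76.3 units at the brighter of its probes and 36 and 5.90 units at the probe printed above. These correspond to differences of -0.84 and -2.03, and to a gene value of -1.43 ± 0.21; with the brighter probe alone the gene was not 2-fold lower. Kcnj9 was at -0.40 ± 0.14, with 3 probes between -0.61 and -0.17, and Kcnj6 at -0.69 ± 0.33 from dim signals of 17.05 and 7.06 units. Kcnj5, the GIRK subunit best known from the heart, was on the higher side at 0.90 ± 0.32, also from dim signals (9.64 and 12 units). Of 4 GIRK genes 3 thus lay below 0.

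The glial rectifiers differed in direction. Kcnj10, the Kir4.1 pore with which astrocytes and oligodendrocytes take up potassium, gave 1249 units in GPHR F/F against 1135 in GPHR F/F;Nes, which is 0.44 ± 0.20 higher once the arrays are scaled. With scaling to spike-in RNAs its direction turned, to -0.51, as did those of the astrocyte markers above 0. Kcnj16, the Kir5.1 subunit that pairs with Kir4.1, gave 202 and 67.2 units, a difference of -1.01 ± 0.21. Of the 6 astrocyte markers 5 lay above 0 (Gfap at 0.82 and Slc1a2 at -0.33 were the extremes), and their summed level was 16.0 in GPHR F/F against 21.4 in GPHR F/F;Nes, in multiples of the 75th percentile. Such sums, here and below, add levels of different probes, so the brightest genes weigh most. Among neuron markers this is Tubb3, and among choroid plexus markers in GPHR F/F;Nes it is Ttr. The part of astrocyte RNA in the Kcnj10 and Kcnj16 values was not tested.

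Kcnj13, the Kir7.1 channel of choroid plexus epithelium, gave 14.4 units in GPHR F/F against 24.3 in GPHR F/F;Nes, a difference of 1.34 ± 0.25 (2.53-fold higher). Kcne2, a small subunit of the same epithelium, gave 9.35 and 8.37 units, near the background limit, and a difference of 0.42 ± 0.37. In the same comparison the choroid plexus markers Ttr (5.35), Folr1 (1.43) and Otx2 (1.36) were all at least 2-fold higher, and Clic6 was detected on the GPHR F/F;Nes array only. Kl was not well above background on either array. The summed level of the 3 measured markers was 0.645 in GPHR F/F against 5.58 in GPHR F/F;Nes. The part of choroid plexus tissue in the Kcnj13 value was not tested. Kcnj13 was at 0.25 after normexp correction and Kcnk6 at 0.39, so neither was then 2-fold higher. Kcnj8, the pericyte channel Kir6.1, was not above background on either array, and its partner Abcc9 was detected on the GPHR F/F;Nes array only, at least 1.87-fold higher. Of the mural cell markers 4 of 5 were measured and all 4 were at least 2-fold higher (1.02 to 2.89), with Rgs5 not above background. Kcnj11, the Kir6.2 pore of neuronal ATP-sensitive channels, was at -0.01 ± 0.20.

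Two-pore genes carry the leak that sets the resting potential. Of 14 genes 9 were measured, 5 lay below 0 and the median was -0.27. Kcnk6 had the largest difference of all members, 10.04 units in GPHR F/F against 26.6 in GPHR F/F;Nes, or 1.99 ± 0.29 (3.96-fold higher). It was a dim gene with 1 measured probe, and its second probe was not above background. Kcnk12, a halothane-inhibited channel subunit, gave 126 and 35.1 units (-1.26 ± 0.21), and its close relative Kcnk13, the microglial channel THIK-1, gave 88.2 and 35.9 units (-0.71 ± 0.21). Kcnk4, a channel opened by stretch and fatty acids, was at -0.84 with probes at -1.16 and -0.53. Kcnk3 was at -0.43 ± 0.21 and Kcnk10 at -0.27 ± 0.15, with its 2 probes at -0.28 and -0.26. Kcnk1, abundant in neurons and astrocytes, was at 0.06 ± 0.20. Kcnk15 and Kcnk16, dim on both arrays, were at 0.94 ± 0.24 and 0.58 ± 0.26.

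Of the 3 members listed for microglia, Kcnk13 and Kcna3 lay below 0 and Kcnk6 above it. Among microglia markers 4 of 6 were measured, all above 0 (Csf1r at 0.24 to Cx3cr1 at 1.69), and 2 were at least 2-fold higher. With median centring 1 of these 4 lay below 0, and with scaling to spike-in RNAs 2 did. Tmem119 was detected on the GPHR F/F;Nes array only, and P2ry12 on neither. Their summed level was 1.44 in GPHR F/F against 2.03 in GPHR F/F;Nes. Whether microglial RNA had a part in the Kcnk6 value was not tested.

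Calcium-activated genes and their relatives varied least. Of 8 genes 8 were measured, none differed 2-fold, 6 lay below 0 and the median was -0.31, with an SD between genes of 0.26, against 0.57 among all genes. Kcnma1, the BK pore opened by voltage and calcium together, had 6 probes between -0.75 and -0.06 and a value of -0.47 ± 0.08. Among the SK channels, which calcium alone opens after spikes, Kcnn1 was at -0.35 ± 0.13 and Kcnn3 at 0.13 ± 0.19. Kcnn2 was at 0.08, but its 4 probes ran from -0.55 to 1.5. Kcnn4, a channel of blood cells and also known from microglia, though not in that list, was dim (14.1 and 7.41 units) and at -0.35 ± 0.36, less than its scanner error. The sodium-activated channels Kcnt1 and Kcnt2 were at -0.27 ± 0.15 and -0.65 ± 0.21, and Kcnu1, known from sperm, was at -0.27 ± 0.20.

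Auxiliary genes lay below 0 in 9 of 11 measured cases of 15, with a median of -0.36. Kcnip genes encode calcium-binding partners of the Kcnd pores, and all 4 lay below 0. Kcnip2 gave 77.2 units in GPHR F/F against 17.7 in GPHR F/F;Nes, a difference of -1.54 ± 0.22 (2.91-fold lower). Kcnip4 gave 1621 and 572 units (-0.92 ± 0.20), Kcnip1 gave 425 and 213 units (-0.42 ± 0.20), and Kcnip3 was at -0.30 ± 0.14. Taking pores and partners of the dendritic A-type current together (Kcnd2, Kcnd3 and the 4 Kcnip genes), 6 of 6 lay below 0, with a median of -0.54 and 1 gene 2-fold lower. Dpp6, a further partner of Kcnd pores, was at -0.76 ± 0.12 over 3 probes, and Dpp10 at 0.20 with an SD of 0.85 between its 4 probes. Kcnip2 was at -0.66 after normexp correction, short of 2-fold.

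The other auxiliary families differed by less than 2-fold. The Kcnab genes, cytosolic partners of Kcna pores, were at -0.16 (Kcnab1, with probes at -0.74 and 0.42), -0.36 ± 0.28 (Kcnab2) and -0.21 ± 0.22 (Kcnab3). The neuronal BK subunit Kcnmb4 gave 909 and 433 units (-0.49 ± 0.14), and its inactivating relative Kcnmb2 gave 40.5 and 17.8 units (-0.60 ± 0.14). The small subunits Kcne1 and Kcne2 were the only auxiliary genes above 0, at 0.72 ± 0.27 and 0.42 ± 0.37, both from signals under 16 units.

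Of the 78 measured members, 33 had several measured probes, and in 21 of these all probes lay on 1 side of 0. In Kcnd1, Kcnn2 and Kcnq5 probes stood more than 0.5 away from 0 on both sides.

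**Figure D4:**
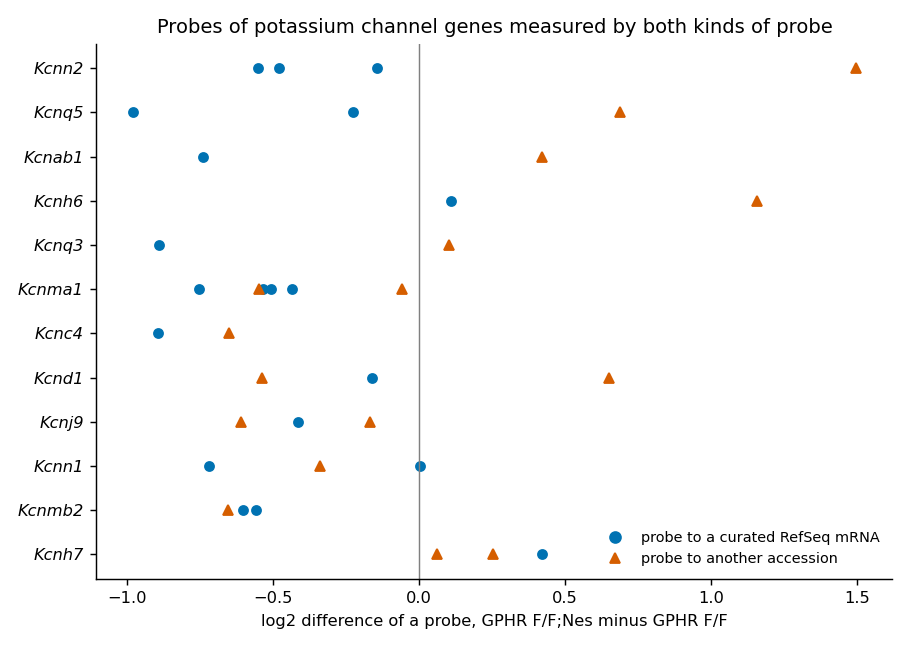
Log2 difference (GPHR F/F;Nes over its control) of every measured probe of members that had both probes to curated RefSeq mRNAs (circles) and probes to other accessions (triangles), 1 gene per row. The triangles of Kcnn2, at 1.5, and of Kcnq5, at 0.69, stand apart from those genes' circles.

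Several members are neighbours on the genome, since the families arose by duplication. Counting only genes whose probe stretches do not overlap, 7 pairs had probes within 100000 bp of each other on mm9. Kcnmb1, not above background, lies inside the stretch spanned by the Kcnip1 probes on chromosome 11 and is not in this count. Kcna1 and Kcna6, on chromosome 6, were both below 0 (-1.15 and -0.52), as were Kcna3 and Kcna2 on chromosome 3 (-0.80 and -0.52). Kcnj16 and Kcnj2, with a gap of 46921 bp between their probes on chromosome 11, were at -1.01 and -0.79. Kcnj9 and Kcnj10, 48557 bp apart on chromosome 1, lay on opposite sides of 0 (-0.40 and 0.44). Kcne2 and Kcne1 on chromosome 16 were both above 0. In the last 2 pairs, Kcna2 with Kcna10 and Kcnj5 with Kcnj1, the second gene was not above background.

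Genes that work with potassium channels without carrying a Kcn symbol differed less. Of 36 such genes 33 were measured, 23 lay below 0, none differed 2-fold and the median was -0.16, against 9.3% of all genes at least 2-fold in either direction. Of 7 genes that cluster Kcna channels on axons or at synapses 6 lay below 0, led by the secreted protein gene Lgi1 (-0.79) and by Cntnap2 (-0.42). The pump subunit gene Atp1b1 was at -0.72 ± 0.20 and the neuronal potassium-chloride cotransporter Slc12a5 at -0.64 ± 0.20, whereas Slc12a7 was at 0.89 ± 0.21, and at -0.06 with scaling to spike-in RNAs. Rest, a repressor of neuronal genes in other cells, was at 0.62 ± 0.12 over 3 probes and at -0.33 with scaling to spike-in RNAs. Of 6 neuron markers 6 lay below 0, with a median of -0.15 (Rbfox3 at -0.88 to Stmn2 at -0.05), and their summed level was 71.5 in GPHR F/F against 60.5 in GPHR F/F;Nes. Of 5 oligodendrocyte markers none lay below 0, though 3 were within their scanner error of 0, and 2 lay below 0 with loess, quantile or normexp processing, 3 with median centring and 5 with scaling to spike-in RNAs. All 3 markers of their precursors lay below 0 in each of these settings. Meningeal markers lay above 0 in 4 of 5 cases (3 of 5 with scaling to spike-in RNAs), 3 of them at least 2-fold, and endothelial markers in 1 of the 2 measured. The part of these cell types in the channel values was not tested.

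**Figure D5:**
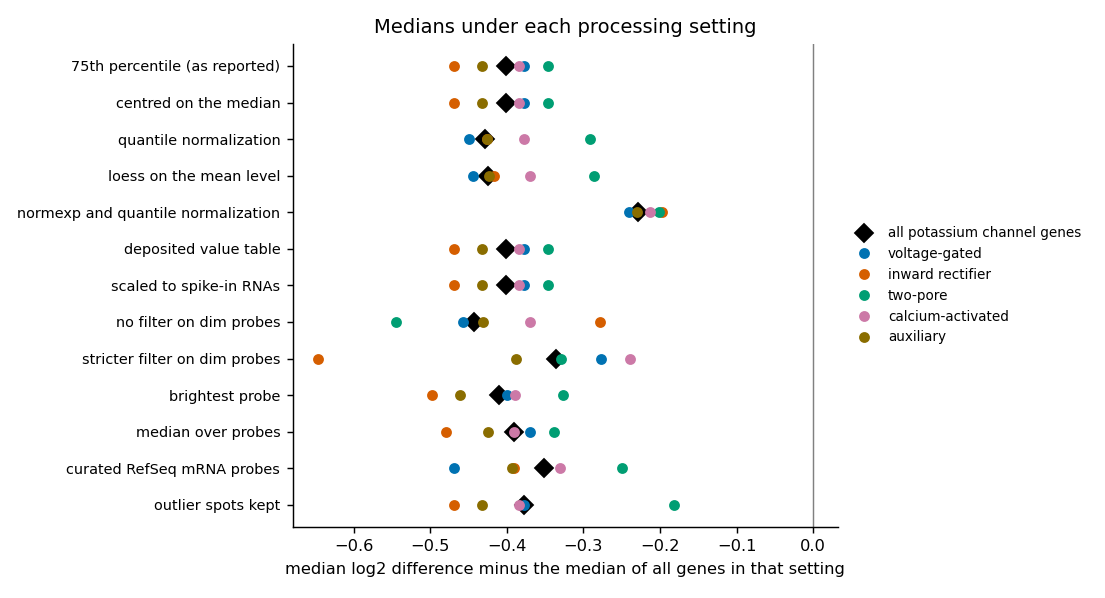
Median log2 difference of all potassium channel genes (diamonds) and of each subfamily (circles) minus the median of all genes, for the reported scaling and 12 other processing settings. Every median lies left of 0. For all potassium channel genes the values run from -0.44 with no filter on dim probes to -0.23 with normexp correction. Median centring, scaling to spike-in RNAs and the deposited value table only shift each array by a constant. Their values (-0.40 for all potassium channel genes, as in the reported scaling) were thus fixed in advance and are no separate check.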

How the data were processed

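TRIzol served for RNA extraction and a low-input Agilent kit for labelling with Cy3, per the labels' protocols. Scans were quantified in Agilent Feature Extraction 11.5.1.1, per the submitters' processing notes. The deposited scanner files give a linear intensity per spot, background-subtracted and detrended per the file headers, with 0 or 1 flags, and their gene names were kept for members. The deposited value table is on the log2 scale and is the processed signal as log2, offset by 1 constant per array to within 0.001 for 100% of single-spot probes in GPHR F/F and 99.95% in GPHR F/F;Nes (medians -3.19 for GPHR F/F and -2.92 for GPHR F/F;Nes). The rule behind these constants is unknown here.

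Outlier spots of either array were dropped, repeated spots of 1 probe were averaged as log2 values, and the 75th percentile of the array (56603 probes) was subtracted. A probe was measured when well above background on both arrays. A gene's value is the mean over its measured probes. Genes with signal on 1 array got a bound set by the dim probe itself or, if higher, by the dimmest detected probe of that array (6.28 units in GPHR F/F, 5.06 units in GPHR F/F;Nes). Of 169 member probes 144 matched a RefSeq accession, and 0 of these had another symbol. No spot was saturated. A few genes count in the totals but are not reported here. Members past 2-fold, the largest differences of each subfamily, members of lists by site of expression and those with opposed probes got values, the others counts or ranges. Members, lists and rules were chosen with earlier results of these data known. Alternatives are named below. Python 3.11.15, numpy 2.4.6, pandas 2.3.3, R 4.3.3 and limma 3.58.1 were used; the calculation was tested on simulated arrays. The number of arrays limits the precision.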

Additional observations from a re-analysis of the deposited data

How the results depend on the processing

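The median of all potassium channel genes and those of the 5 subfamilies stayed below 0, and below the median of all genes, in the 12 other settings run. Centring on the median gave -0.60 for all members, -0.58 for voltage-gated, -0.67 for inward rectifier, -0.55 for two-pore, -0.59 for calcium-activated and -0.63 for auxiliary genes, with 18 members at least 2-fold lower. Scaling to spike-in RNAs gave -1.28, -1.25, -1.35, -1.22, -1.26 and -1.31, with 55 members lower and 1 higher. Both shift every gene alike and put the median of all genes at -0.20 and -0.88. Lying below 0, or below the median of all genes, is therefore no separate check in these settings. Normexp correction with quantile normalization, which adds an offset of 50 units, left 2 members lower and 0 higher. Calls were lost by dim members and also by bright ones, among them Kcnh3 (-0.93) and Kcna4 (-0.94), and the cause was not tested. With no filter on dim probes the median of all genes rose to 0.27. In that setting 7 members were higher, and the share of all genes is not given. The inward rectifier median was then -0.0054 and the calcium-activated median -0.10, which is -0.28 and -0.37 relative to all genes. For all members that gap was -0.44, and Kcnq1 turned to -0.087. A stricter filter (50 units on both arrays) put the inward rectifier median at -0.68. It left Kcnip2, Kcnk12, Kcnj13 and Kcnk6 unmeasured and Kcnj3 under 2-fold. Thresholds of 1.5-fold gave 7 higher and 25 lower members, and of 3-fold 1 and 1. The shares of all genes at these thresholds are not given, so these counts have no background to be read against. The median over probes kept all 13 calls. The deposited value table kept them too, but it is the same processed signal offset by 1 constant per array and so is no separate check. Kcnq1 lost its call with median centring, quantile normalization and loess, Kcnh3 with quantile normalization and loess, and Kcnj3 with the brightest probe; the causes were not tested. Dim genes such as Kcnk6 and Kcnj13 lie near background, where a small signal error moves the difference most. No paired analysis was possible because each genotype had 1 array.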

Other observations

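Probes designed to curated RefSeq mRNAs and probes designed to other accessions gave different pictures of the same channels, a split made after the values were seen. Among measured member probes, 84 of 106 curated ones lay below 0 (79.2%, median -0.40) and 11 of 20 others (55%, median -0.10). Among all measured probes of the array 53.7% of 22308 curated ones and 34.4% of 14409 others lay below 0, so the array as a whole has the same order. The others were also dimmer, with a median level of -1.93 against -1.5 among members. In 13 members measured by both kinds, the other probes were higher in 11 (84.6%), against 67.4% of 3605 other genes measured by both kinds. The widest gaps were those of Kcnn2 (-0.39 for curated probes and 1.5 for the other), Kcnq5 (-0.60 and 0.69), Kcnab1 (-0.74 and 0.42), Kcnh6 (0.11 and 1.16) and Kcnq3 (-0.89 and 0.10). In Kcnn2, Kcnq5, Kcnab1 and Kcnq3 the gene value given above averages probes on opposite sides of 0, and the curated probes alone put these genes lower. Which transcripts the other probes detect was not analysed here.

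Kcnk2 would be the member with the largest difference, 2.99, if its uneven spot on the GPHR F/F;Nes array were kept. It had no other probe. With outlier spots kept, the two-pore median was -0.11 over 10 genes, which is -0.18 relative to all genes.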
